A study of Mus musculus with 96 samples.

Results

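Striatal mRNA of 8 heterozygous Q92 mice was compared with that of 16 wild-type mice, all aged 10 months, across every gene that passed a filter on low counts. The members were the libraries whose titles give this genotype or wild type at this age, 24 of the 96 in the series. Q92 mice carry 1 knock-in allele of Htt, the gene mutated in Huntington's disease, with a CAG repeat length label of 92, in the strain C57BL/6, and were housed with Q92 mice alone. The wild types had the same strain label and 2 housing cohorts of 8, the Q20 cohort and the Q50 cohort, each kept with knock-in mice of that repeat length. Every group of 8 held 4 females (F1 to F4) and 4 males (M1 to M4). Because no wild type was labelled as housed with Q92 mice, genotype and housing cannot be told apart. Heterozygous Q20, Q50 and Q140 mice of the same age and strain (8 each) shared the fit, and Q92 and wild-type mice of 6 months (8 and 16) served for a comparison of ages. The labels do not say that each library came from a separate animal, so p-values measure the spread between libraries, which may be partly technical. The counts do not separate the knock-in allele from the other Htt allele.

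The striatum is made up largely of projection neurons that use GABA as their transmitter. Those of the direct pathway carry the dopamine D1 receptor and the peptide substance P, and those of the indirect pathway carry the D2 receptor and enkephalin. In Huntington's disease an expanded CAG repeat lengthens the polyglutamine stretch of huntingtin, and these neurons are the ones most affected, with loss of transcripts for their receptors, phosphodiesterases and signalling proteins known from patients and from mouse models.

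Libraries held 31.4 to 35.5 M counts in Q92 mice and 29.3 to 34.0 M counts in wild types. Mitochondrial genes took 10.6% to 13.1% of them in Q92 mice and 10.8% to 13.0% in wild types. All 37 listed genes shared by striatal projection neurons were detected. Female Q92 library F1 stood apart. The mean log2 CPM (a gene's counts per M counts of the library, M for mega, on TMM-scaled sizes) over those 37 genes was 7.31 in F1, between 8.23 and 8.50 in the other 7 Q92 libraries and between 8.16 and 8.84 in wild types. The same library had the highest mean of 10 thalamus genes among the Q92 libraries, 6.34, with 2.06 to 5.59 in the others and 2.08 to 5.97 in wild types. Q20 libraries F4 and M4, which entered the fit but not the contrast, were also low in the projection neuron genes, at 6.67 and 7.05. Values without these 3 libraries are given beside the gene lists below.

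Htt itself did not pass the threshold in Q92 mice. Its level was 179, 197 and 217 CPM in Q92 mice (lowest, median and highest library, the order used throughout), against 190.0, 203 and 225 CPM in wild types. The ranges overlapped over most of their length, and the log2 fold change was -0.037 ± 0.0415 (standard error, edgeR quasi-likelihood test with Benjamini-Hochberg adjustment, adjusted p = 0.857).

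Few genes separated the genotypes at this age, and most of the differences were small. Of 17285 genes tested, 73 passed an adjusted p of 0.05 (0.422%), 40 of them higher in Q92 mice (0.231% of genes tested) and 33 lower (0.191%). The median absolute log2 fold change of the 73 was 0.377, or 1.3-fold. Of these, 34 differed by less than 1.25-fold and 18 by more than 2-fold. By annotation 62 were protein coding and 11 were not. All 73 had the same sign in females and in males. They were picked on both sexes together, so the equal signs are no evidence that the sexes agree. Over all genes tested the median log2 fold change was 0.0025, and at an unadjusted p under 0.05 there were 768 genes higher and 834 lower. The wild types of both cohorts differed from each other in 60 genes (0.347%), and 0 of the 73 were among them. The count of 73 became 41 when Q92 library F4 was left out, 28 against the wild types of the Q50 cohort alone and 86 against those of the Q20 cohort alone. Without Q92 F1, Q20 F4 and Q20 M4 it became 177, of which 70 were among the 73; this setting was chosen after the data were seen.

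In 4 genes every Q92 library lay above every wild type (0.0231% of genes tested). Abhd1, which encodes an alpha/beta hydrolase domain protein, had 3.40, 4.93 and 5.68 CPM in Q92 mice, against 1.51, 2.03 and 2.87 CPM in wild types. The highest wild type thus stayed below the lowest Q92 library, F4, and the log2 fold change was 1.17 ± 0.133 (adjusted p = 4.77e-07). Gm2420, a predicted gene of very low level, stood at 0.152, 0.214 and 0.308 CPM in Q92 mice, against 0, 0.0460 and 0.0991 CPM in wild types, with a log2 fold change of 2.29 ± 0.309 (adjusted p = 1.14e-05). Dpysl5, a collapsin response mediator protein that acts in axon and dendrite growth, reached 42.8, 48 and 51.2 CPM in Q92 mice, against 30.7, 39.1 and 42.0 CPM in wild types (0.30 ± 0.049, adjusted p = 0.000455). For this abundant gene the gap between the groups was under 1 CPM. Lrrn3, a leucine-rich repeat membrane protein of neurons, had 49.0, 56.0 and 62.3 CPM in Q92 mice, against 38.9, 44.1 and 48.5 CPM in wild types (0.34 ± 0.0522, adjusted p = 0.000125). Its Q140 value against the wild types was 0.52 ± 0.0519, and its Q20 and Q50 values against the wild types of their own cohort were 0.066 ± 0.0612 and 0.10 ± 0.0611.

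In 5 genes every Q92 library lay below every wild type (0.0289%), and 4 of these passed the threshold. Ankrd35, an ankyrin repeat protein, stood at 7.32, 9.40 and 10.2 CPM in Q92 mice, against 11.1, 13.4 and 15.2 CPM in wild types, a log2 fold change of -0.52 ± 0.0698 (adjusted p = 1.14e-05). Krt9, an epidermal keratin, had 9.81, 17.0 and 23.1 CPM in Q92 mice, against 23.1, 30.9 and 44.1 CPM in wild types (-0.95 ± 0.173, adjusted p = 0.00208). The lowest Q92 library for Krt9 was F1, and the highest Q92 library and the lowest wild type were almost level. Gm15721, a predicted gene, had 0.922, 1.78 and 1.94 CPM in Q92 mice, against 1.97, 2.99 and 4.20 CPM in wild types (-0.84 ± 0.168, adjusted p = 0.00581). Atraid, named for its induction by retinoic acid, had 36.5, 38.9 and 40.1 CPM in Q92 mice, against 43.0, 46.6 and 50.1 CPM in wild types (-0.26 ± 0.0355, adjusted p = 1.14e-05). Its groups were each narrow, so that a small difference left a clear gap. The calls of all 8 separated genes held in each of the 24 fits that left out 1 library of the contrast. The genes were picked because every library lay on 1 side, so these fits add little evidence of their own. Under other settings Gm15721 lost its call in 4 fits, Krt9 in 3, Lrrn3 in 2 and each of the rest in 1. Against the wild types of the Q50 cohort alone Gm15721 had an adjusted p of 0.12.

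**Figure D1:**
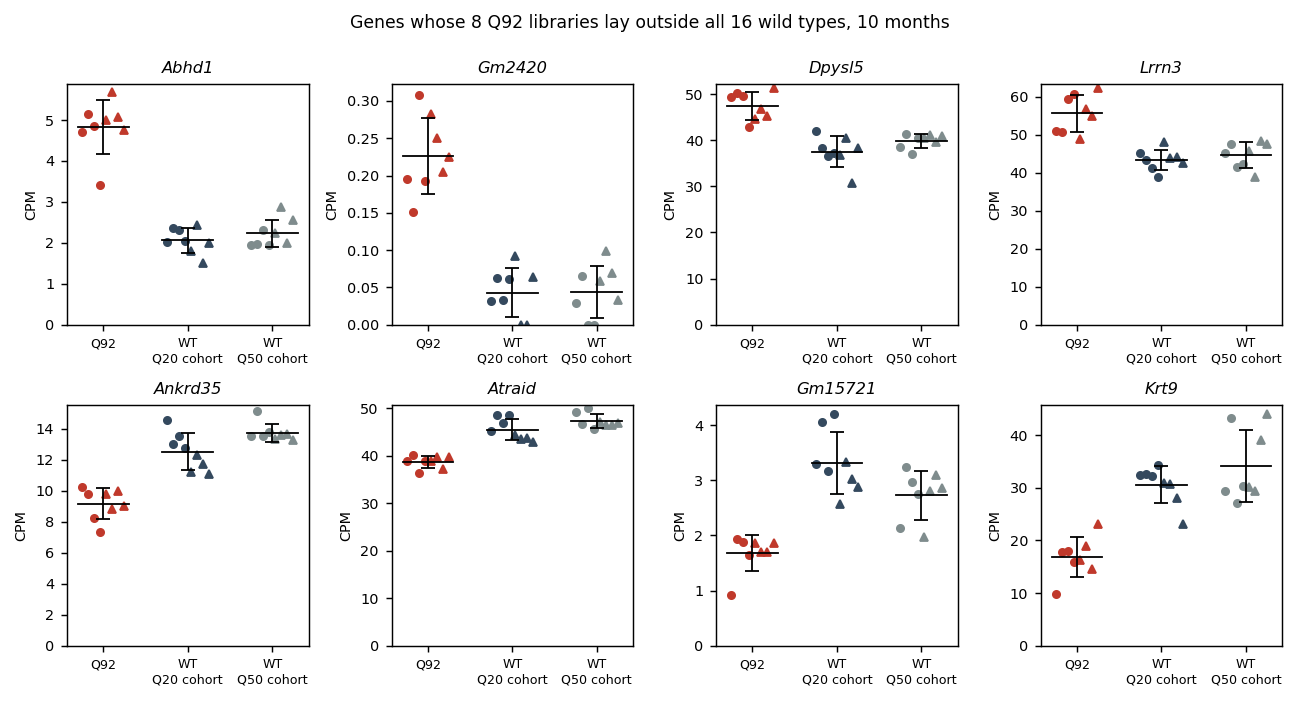
CPM per library (y axis, from 0) of the 8 genes whose Q92 libraries all lay above or all below the 16 wild types and that passed the threshold, with Q92 left of both wild-type cohorts; circles are females, triangles are males, and lines and bars are the mean and SD of 8 libraries. Abhd1 runs from 3.40 to 5.68 CPM in Q92 mice and from 1.51 to 2.87 CPM in wild types, with no overlap.

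Chromosome 5, which carries Htt, held 6.10% of the genes tested and 15 of the 73 called. Of its 1055 genes, 15 passed the threshold (1.42%), 10 higher and 5 lower in Q92 mice. Within 11 Mb of Htt, a window set after the positions were seen, 11 of 206 genes passed (5.34%), and beyond it 4 of 849 (0.471%). All 11 lay on the side of lower coordinates. They included Cnpy1, 6.56 Mb from Htt, which was high in Q92 F2 alone, at 8.19 CPM. In the other Q92 libraries it was at most 0.545 CPM, and its call was lost without F2. Gm2420 was 2.04 Mb from Htt, Atraid 3.71 Mb, Abhd1 3.81 Mb, Dpysl5 4.05 Mb and Otof 4.39 Mb by the GENCODE M21 annotation. Otof, or otoferlin, a calcium sensor of vesicle release known from inner hair cells, had 17.8, 27.8 and 47.2 CPM in Q92 mice, against 28.7, 49.2 and 78.1 CPM in wild types (-0.73 ± 0.165, adjusted p = 0.0219); its groups overlapped, and its call was lost when any of Q92 F1, F3, F4, M1 or M2 was left out and without the 3 libraries that stood apart (adjusted p = 0.0542). Among 13 tested neighbours of Htt on a list of 14, 0 passed the threshold, with a median log2 fold change of -0.0061 and a range of -0.24 to 0.13.

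In Q20, Q50 and Q140 mice the 4 separated genes nearest to Htt had values of the same sign as in Q92 mice; the comparisons share wild types. For Abhd1 the log2 fold changes were 1.17 ± 0.161 in Q20, 1.30 ± 0.16 in Q50, 1.17 ± 0.133 in Q92 and 1.42 ± 0.132 in Q140 mice. The values of Gm2420 in the same order were 2.29 ± 0.38, 2.51 ± 0.371, 2.29 ± 0.309 and 3.01 ± 0.284, those of Dpysl5 were 0.30 ± 0.0573, 0.40 ± 0.0572, 0.30 ± 0.049 and 0.25 ± 0.0491, and those of Atraid were -0.31 ± 0.0407, -0.33 ± 0.0406, -0.26 ± 0.0355 and -0.21 ± 0.0354. Between Q92 and Q140 mice none of the 4 passed the threshold, with adjusted p from 0.12 for Gm2420 to 0.73 for Dpysl5. In Q20 library M4, 1 of the 3 that stood apart, Abhd1 was at 1.09 CPM and Dpysl5 at 34.3 CPM, within or below the wild-type range.

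Another 6 called genes split the Q92 libraries into 2 levels, a pattern singled out after the values were seen. They were 5031410I06Rik, Gm10471 and Gm5067 and the glycosyltransferase gene Galnt11, all on chromosome 5 between 8.66 and 9.54 Mb from Htt, with Gm6410 on chromosome 8 and Gm11331 on chromosome 13. 5031410I06Rik and Gm10471 lie close together and have near-identical promoters. Both promoters are printed from the RefSeq promoter table (GRCm38.p6, minus strand). Capitals mark the 11 of 280 bases that differ, and 96.1% are the same. This likeness is that of the promoters and not of the transcripts, which are compared after the sequences. 5031410I06Rik spans chr5:26105285-26105564 and Gm10471 spans chr5:26089215-26089494.
5031410I06Rik: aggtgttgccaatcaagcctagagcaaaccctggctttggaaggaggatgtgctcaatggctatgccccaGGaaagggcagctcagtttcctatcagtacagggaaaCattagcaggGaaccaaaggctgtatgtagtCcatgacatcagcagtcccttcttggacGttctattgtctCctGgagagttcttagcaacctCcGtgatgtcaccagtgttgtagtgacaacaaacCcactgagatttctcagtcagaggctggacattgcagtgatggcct
Gm10471: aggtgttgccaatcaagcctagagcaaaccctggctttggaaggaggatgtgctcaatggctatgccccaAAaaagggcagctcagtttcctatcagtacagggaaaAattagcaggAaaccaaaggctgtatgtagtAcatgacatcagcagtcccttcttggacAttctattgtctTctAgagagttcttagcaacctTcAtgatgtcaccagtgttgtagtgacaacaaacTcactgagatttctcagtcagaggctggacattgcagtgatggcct
Their annotated transcripts shared 1053 stretches of 31 bases, 35.5% of those in 5031410I06Rik and 35.9% of those in Gm10471. Each shared at least 10% of its stretches with 13 annotated genes besides itself, the other of the pair not set aside. The largest shares were 91.9% for 5031410I06Rik with Gm21698 and 37.8% for Gm10471 with Speer4a. Gm5067 shared 57.3% with Gm21168 and Gm11331 shared 48.8% with Gm14219, so which copy gave the reads of these genes is uncertain.

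In 6 of the 8 Q92 libraries these genes were high, and in F2 and M1 they were at the wild-type level. 5031410I06Rik ran from 0 to 0.437 CPM in wild types, 0.0613 to 0.331 in Q20, 0.689 to 1.35 in Q50 mice, 0.091 in Q92 F2, 0.254 in Q92 M1, 0.545 to 1.40 in the other 6 Q92 libraries and 0.578 to 1.22 in Q140 mice. Gm10471 had 0.182 and 0.169 CPM in F2 and M1, 0.565 to 1.06 in the other Q92 libraries and at most 0.32 in wild types. Gm5067 had 1.12 and 0.846 CPM in F2 and M1, 1.75 to 3.21 in the others and at most 1.38 in wild types. For these 3 genes and for Gm6410, with 1 to 1.04 CPM in F2 and M1 against 2.31 to 3.20 in the other 6, all Q50 and Q140 libraries were above all wild types and all Q20 libraries were within or below 1.35 CPM, the highest Q20 value of any of the 4. Galnt11 had 31.3 and 31.2 CPM in F2 and M1, 36.4 to 40.1 in the other Q92 libraries and 30.9 to 34.0 in wild types. Its Q50 libraries lay at 38.2 to 40.9 CPM, and its Q140 libraries at 30.8 to 37.9 CPM overlapped the wild types. Gm11331 was nearer the limit of detection, at 0.314 to 0.727 CPM in the 6 libraries, 0.182 and 0.169 in F2 and M1 and 0 to 0.335 in wild types. As group contrasts the log2 fold changes were 1.91 ± 0.325 for 5031410I06Rik, 2.25 ± 0.292 for Gm10471, 1.06 ± 0.145 for Gm5067, 0.96 ± 0.142 for Gm6410, 1.90 ± 0.333 for Gm11331 and 0.15 ± 0.0351 for Galnt11, with adjusted p from 8.41e-06 for Gm10471 to 0.0278 for Galnt11. What sets F2 and M1 apart was not tested.

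**Figure D2:**
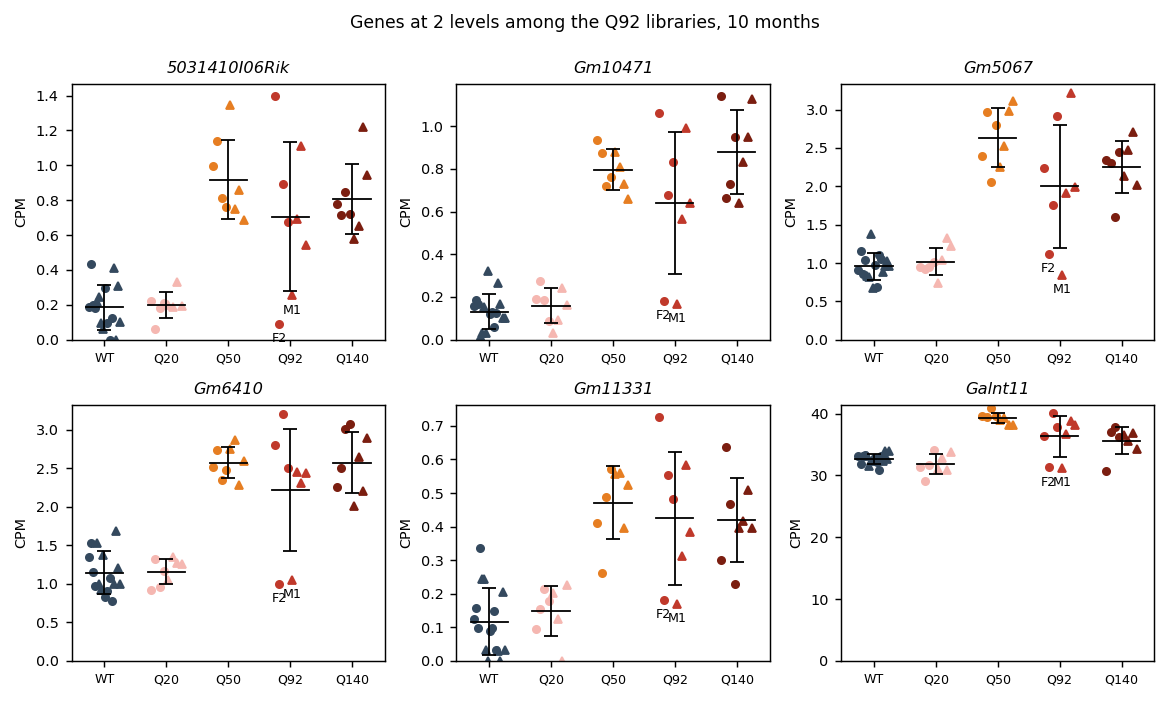
CPM per library (y axis, from 0) of 6 genes at 10 months in wild types and in Q20, Q50, Q92 and Q140 mice, ordered by repeat length; circles are females, triangles are males, and lines and bars are the mean and SD. Q92 libraries F2 and M1 are named and sit at the wild-type level, for example at 1.12 and 0.846 CPM for Gm5067, where the other 6 Q92 libraries run from 1.75 to 3.21 CPM.

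Projection neuron genes had lower values in Q92 mice almost throughout, yet 1 passed the threshold. Of 37 shared genes Rgs4 fell, 0 rose and 36 had a log2 fold change below 0, with a median of -0.25; over all genes tested 8397 of 17285 were below 0, with a median of 0.0025. Rgs4, a regulator that speeds the switching off of G proteins, had 418, 570.5 and 633 CPM in Q92 mice, against 591, 709.9 and 892 CPM in wild types (-0.39 ± 0.0794, adjusted p = 0.00843). F1 was the lowest Q92 library, 5 of 8 lay below every wild type, and without F1 the value was -0.33 (adjusted p = 0.0324). Rgs4 did not pass against the wild types of the Q50 cohort alone (-0.32, adjusted p = 0.13). With Q92 F2, F3, F4 and M2 left out together, a setting chosen after the data were seen, its adjusted p was 0.133. In that fit 0 of the 37 genes passed. In bulk tissue, fewer cells of a type and less RNA per cell cannot be told apart.

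The phosphodiesterase Pde10a, the sodium channel subunit Scn4b and the cannabinoid receptor Cnr1 had the largest differences of the list without passing. Pde10a stood at 529, 1301 and 1450 CPM in Q92 mice, against 1333, 1766 and 2205 CPM in wild types (-0.55 ± 0.18, adjusted p = 0.224). Cnr1 had 113, 277 and 313 CPM in Q92 mice, against 285, 374 and 469 CPM in wild types (-0.56 ± 0.163, adjusted p = 0.136), and Scn4b had 559, 1165 and 1253 CPM in Q92 mice, against 1134, 1542 and 1989 CPM in wild types (-0.54 ± 0.155, adjusted p = 0.122). In each of the 3 genes F1 was far below the other Q92 libraries, and 3 to 5 Q92 libraries lay below every wild type. Q92 F1, Q20 F4 and Q20 M4 were singled out by their low mean over these same 37 genes. Leaving them out can narrow the spread of these and related genes. The adjusted p without them, here and below, is thus no independent evidence. With Q92 F1, Q20 F4 and Q20 M4 left out, 5 shared genes fell, and the median over the 37 was -0.141. They were Rgs4 (-0.33, adjusted p = 0.00065), Scn4b (-0.44, adjusted p = 0.00268), Cnr1 (-0.45, adjusted p = 0.00578), Pde10a (-0.44, adjusted p = 0.00968) and Adcy5, the adenylyl cyclase of these neurons (-0.31, adjusted p = 0.0446). With Q92 F1 kept, DESeq2 on the same 48 libraries also called Rgs4, Cnr1 and Scn4b. In a fit of the 24 libraries of the contrast alone Rgs4 passed, as did Scn4b (adjusted p = 0.0195), Pde10a (adjusted p = 0.046) and Cnr1 (adjusted p = 0.0473). With F1 alone left out of the 48, Rgs4 passed, and the adjusted p was 0.262 for Scn4b, 0.279 for Cnr1 and 0.41 for Pde10a. With the mean of the thalamus genes as a covariate and F1 kept, Rgs4, Cnr1 and Scn4b passed, and the median over the 37 was -0.2. Pde10a did not pass there, but did with thalamus and cortex covariates together. Beyond these fits the part of the thalamus signal of F1 in these values was not tested. Ppp1r1b, which encodes the dopamine-regulated phosphoprotein DARPP-32, stood at 407, 1010 and 1106 CPM in Q92 mice, against 905, 1231 and 1489 CPM in wild types, and did not pass with these libraries (adjusted p = 0.507) or without them (adjusted p = 0.0881).

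Genes of the indirect pathway had larger negative values than genes of the direct pathway, although the difference between the lists was not tested. Of 7 indirect pathway genes 0 passed the threshold with all libraries, 6 had negative values and the median was -0.45. Penk, the enkephalin precursor, had 313, 732 and 922 CPM in Q92 mice, against 752, 1096 and 1455 CPM in wild types (-0.64 ± 0.179, adjusted p = 0.103). Adora2a, an adenosine receptor, had 70.6, 176 and 210.4 CPM in Q92 mice, against 152, 237 and 302 CPM in wild types (-0.52 ± 0.192, adjusted p = 0.306). Penk passed with F1 kept by DESeq2, in the 24-library fit (adjusted p = 0.0239) and with a thalamus covariate, and did not with F1 alone left out (adjusted p = 0.232). Without the 3 libraries both fell, Penk with a value of -0.53 (adjusted p = 0.000433) and Adora2a with -0.40 (adjusted p = 0.0326). Drd2, the D2 receptor, had 45.2, 114 and 136 CPM in Q92 mice, against 106, 141 and 173 CPM in wild types, and passed in neither fit (adjusted p = 0.506 and 0.179).

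Of 9 direct pathway genes 0 passed with all libraries and the median was -0.077. Drd1, the D1 receptor, had 84.2, 239 and 272 CPM in Q92 mice, against 192, 265 and 358 CPM in wild types (-0.28 ± 0.191, adjusted p = 0.713). Tac1, the substance P precursor, stood higher, at 73.1, 209 and 242 CPM in Q92 mice, against 129.5, 172 and 226 CPM in wild types (0.17 ± 0.169, adjusted p = 0.834), with F1 again the lowest Q92 library. Without the 3 libraries 1 of the 9 passed, Isl1, a transcription factor of direct pathway neurons, which rose by 0.21 (adjusted p = 0.0307).

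**Figure D3:**
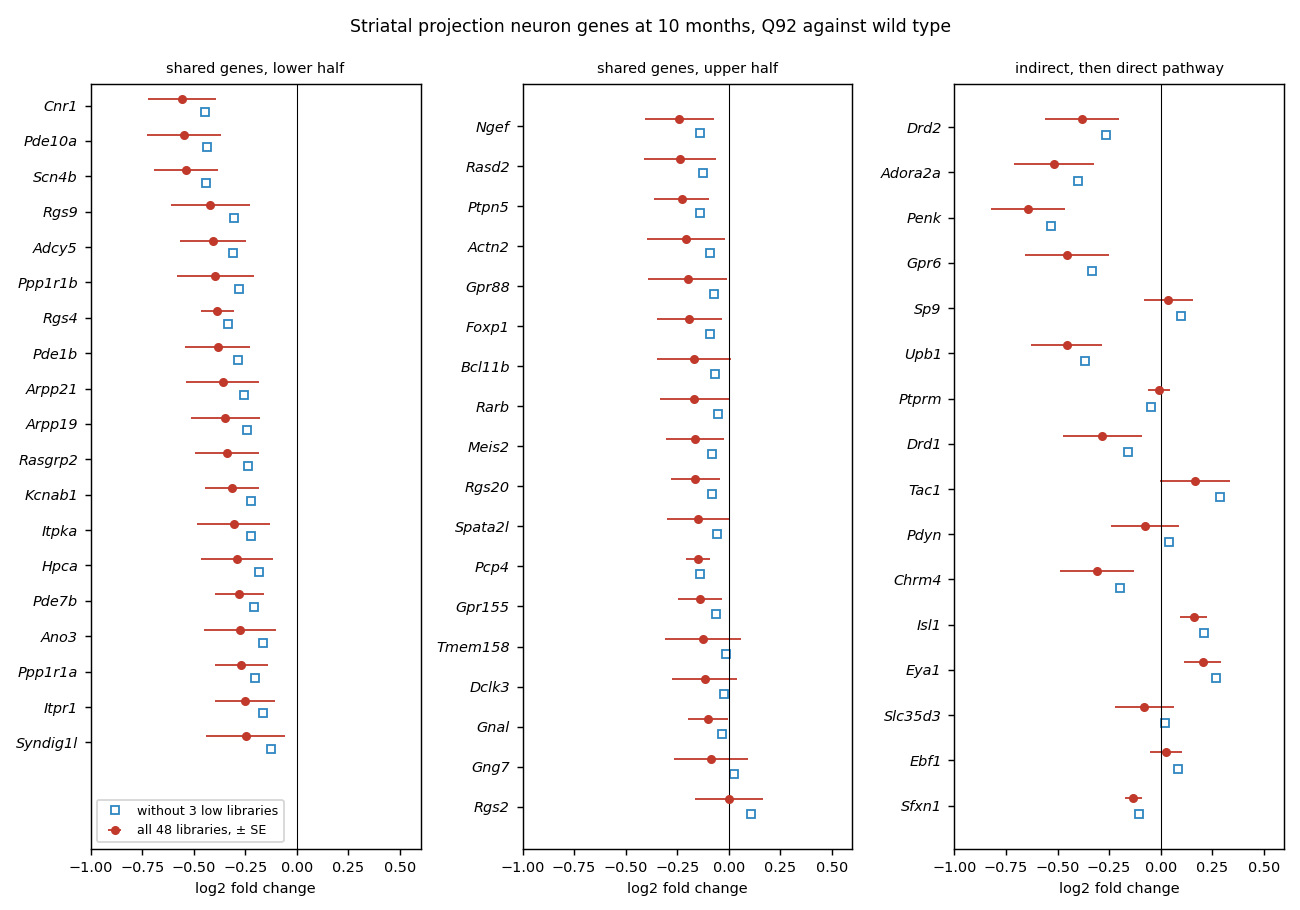
Log2 fold changes of Q92 mice against wild types at 10 months (x axis) for 37 genes shared by striatal projection neurons (the first and the second panel, ordered by value) and for 7 indirect and 9 direct pathway genes (in the third panel); filled points with SE bars use all 48 libraries, and open squares leave out Q92 F1, Q20 F4 and Q20 M4. The open squares lie to the right of the filled points in most genes, with Penk at -0.64 and -0.53.

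A list of 22 genes known to change strongly in Q140 mice of these data was followed in Q92 mice; the comparisons share the wild types, and the list is no independent evidence of direction. Of the 22, 2 rose and 3 fell in Q92 mice, where 10 rose and 12 fell in Q140 mice. Among all genes 1863 rose (10.8%) and 1461 fell (8.45%) in Q140 mice. The median over the list was -0.43 in Q92 mice and -0.85 in Q140 mice. Without Q92 F1, Q20 F4 and Q20 M4, 3 rose and 9 fell in Q92 mice.

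Wt1, a zinc finger transcription factor of kidney and gonad development, was low but rose in Q92 mice. It had 0.113, 0.253 and 0.642 CPM in Q92 mice, against 0, 0.0325 and 0.195 CPM in wild types, and 6 of 8 Q92 libraries lay above every wild type (2.28 ± 0.374, adjusted p = 0.000403). Q140 mice had 1.90, 3.75 and 5.16 CPM, and all Q92 libraries were below them (-3.60 ± 0.303 for Q92 minus Q140, adjusted p = 3.42e-11). Onecut1, another developmental transcription factor, stood at 0.0615, 0.152 and 0.282 CPM in Q92 mice, against 1.69, 3.02 and 4.02 CPM in Q140 mice (-4.07 ± 0.441, adjusted p = 2.07e-08), and its Q92 value against wild types was 0.50 ± 0.503 (adjusted p = 0.827). Of 16 tested developmental transcription factors on a list of 27, Wt1 was the 1 that passed in Q92 mice, and 5 rose in Q140 mice.

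Ddit4l, an inhibitor of mTOR signalling, and Sec14l3, a Sec14-like lipid-binding protein, fell in Q92 mice and fell further in Q140 mice. Ddit4l had 9.11, 15.7 and 19.3 CPM in Q92 mice, against 17.6, 26.2 and 35.3 CPM in wild types (-0.75 ± 0.157, adjusted p = 0.0104), and the Q92 minus Q140 difference was 0.94 ± 0.184 (adjusted p = 0.00174). Sec14l3 had 2.42, 3.73 and 5.66 CPM in Q92 mice, against 3.01, 7.52 and 10.0 CPM in wild types (-0.90 ± 0.188, adjusted p = 0.0103), with a Q92 minus Q140 difference of 1.26 ± 0.229 (adjusted p = 0.000647). Krt9 and Abhd1 did not pass the threshold between Q92 and Q140 mice. For Krt9 the Q92 minus Q140 difference was -0.000565 ± 0.195 (adjusted p = 1), and for Abhd1 it was -0.25 ± 0.152 (adjusted p = 0.406). Ryr1, the ryanodine receptor of muscle, also expressed in brain, did not pass in Q92 mice with all 48 libraries by edgeR, although 7 of 8 libraries lay below every wild type: it had 28.4, 67.4 and 90.2 CPM in Q92 mice, against 78.0, 113 and 151 CPM in wild types (-0.74 ± 0.205, adjusted p = 0.105). Without the 3 libraries Ryr1 fell (-0.62, adjusted p = 0.00117), and it passed in the 24-library fit (adjusted p = 0.0197) and by DESeq2.

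**Figure D4:**
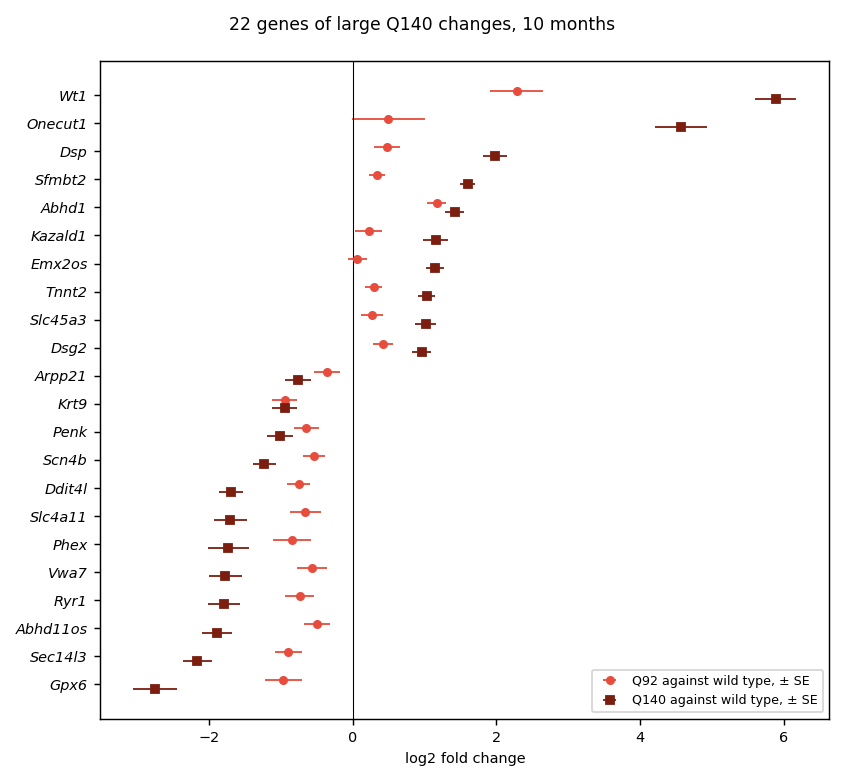
Log2 fold changes (x axis, bars are SE) of 22 genes with large changes in Q140 mice, in Q92 (circles) and Q140 (squares) against the same wild types at 10 months, ordered by the Q140 value. Krt9 stands at -0.95 in both genotypes, while Wt1 stands at 2.28 in Q92 and 5.88 in Q140 mice.

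Across all genes 571 differed between Q92 and Q140 mice (3.3%), 278 higher and 293 lower in Q92 mice. Of the 73 genes called against wild types, 25 were among them. Both comparisons use the same Q92 libraries, so this overlap is not independent. The 4 largest values lower in Q92 mice, among genes of at least average log2 CPM 0, were those of the desmosomal protein gene Dsp (-1.50 ± 0.199), the Polycomb-related gene Sfmbt2 (-1.26 ± 0.121), Emx2os, a transcript antisense to Emx2 (-1.08 ± 0.148), and Kazald1 (-0.93 ± 0.207), a secreted protein gene. Dsp had 0.930 to 2.68 CPM in Q92 mice, against 3.38 to 6.28 CPM in Q140 mice, with no overlap. Without strand information in the sources, reads of Emx2os cannot be told from reads of Emx2. Of 37 shared projection neuron genes 3 were higher in Q92 than in Q140 mice, namely Scn4b (0.70 ± 0.175, adjusted p = 0.0158), Rgs4 (0.34 ± 0.0903, adjusted p = 0.0213) and Pcp4, a calmodulin-binding protein (0.46 ± 0.0662, adjusted p = 1.25e-05). The 4 largest values higher in Q92 mice were those of Prl, Gh, Fat2 and Cbln3, described with their libraries further on. Without Q92 F1, Q20 F4 and Q20 M4 the count was 1067.

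Another 6 genes are given from those that fell in Q92 mice and kept their call in all 24 fits with 1 library left out. Wnt8b, a secreted Wnt ligand, had 0.280, 0.892 and 1.29 CPM in Q92 mice, against 1.25, 2.26 and 3.11 CPM in wild types, and 7 of 8 Q92 libraries lay below every wild type (-1.31 ± 0.232, adjusted p = 0.00109). Ifi27l2b, of an interferon-inducible family, had 0.0642, 0.186 and 0.385 CPM in Q92 mice, against 0.385, 0.750 and 1.05 CPM in wild types (-1.64 ± 0.319, adjusted p = 0.00454). Tmem114, a transmembrane protein gene, had 0.0941, 0.279 and 0.455 CPM in Q92 mice, against 0.398, 0.638 and 1.01 CPM in wild types (-1.30 ± 0.223, adjusted p = 0.000821). All 3 were low in level, and in each 7 of 8 Q92 libraries lay below every wild type. Plk5, a polo-like kinase family member of neurons, was more abundant, with 8.30, 11.9 and 14.6 CPM in Q92 mice, against 12.7, 20.3 and 25.1 CPM in wild types (-0.81 ± 0.15, adjusted p = 0.00252). Zmynd8, a reader of histone marks, had 94.8, 101 and 112 CPM in Q92 mice, against 107, 116 and 133 CPM in wild types (-0.21 ± 0.0322, adjusted p = 9.62e-05), a difference of under 1.25-fold in a gene of narrow spread. Rnf144a, an E3 ubiquitin ligase, had 35.2, 40.7 and 43.0 CPM in Q92 mice, against 42.9, 47.2 and 53.4 CPM in wild types (-0.25 ± 0.0496, adjusted p = 0.00476).

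Other genes fell as well. The actin-binding coronin Coro2b fell by 0.19 on the log2 scale, as did the tensin Tns1 and the unconventional myosin Myo18a. The call of Myo18a held in all 24 fits that left out 1 library, and that of Coro2b was lost in 3. Kcnh5, an EAG-type potassium channel, fell by 0.38 and was the 1 of 53 listed potassium channel genes to pass; the median of that list was -0.03. Its call was lost without Q92 F2, F4 or M2, and without the 3 libraries that stood apart Kcnh4 also fell, with a list median of -0.0746. The log2 fold changes of Gpd1, the cytosolic glycerol-3-phosphate dehydrogenase, and Ppp4r4, a regulatory subunit of protein phosphatase 4, were -0.28 ± 0.0652 and -0.26 ± 0.0584, and their calls were lost in 6 and in 4 of the 24 fits that left out 1 library. The histone deacetylase gene Hdac11 had 152, 163 and 184 CPM in Q92 mice, against 155, 184 and 199.8 CPM in wild types, the ranges overlapping widely (-0.15 ± 0.0376, adjusted p = 0.0452); its call was lost in 17 of the 24 fits that left out 1 library. Cntnap5b, a contactin-associated cell adhesion protein, fell by 0.43 (adjusted p = 0.0427), and its call was lost in 18 of them.

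Htr2c, the serotonin 2C receptor, rose in Q92 mice. It had 70.4, 88.9 and 104 CPM in Q92 mice, against 54.3, 72.9 and 90.3 CPM in wild types (0.32 ± 0.0759, adjusted p = 0.0317). It was the 1 of 28 tested monoamine and muscarinic receptor genes to pass, and the median of that list was -0.044. Npy1r, the neuropeptide Y receptor Y1, had 12.7, 13.7 and 15.1 CPM in Q92 mice, against 10.1, 11.5 and 13.1 CPM in wild types (0.26 ± 0.0633, adjusted p = 0.0436). The call of Htr2c was lost in 5 of the 24 fits that left out 1 library and that of Npy1r in 16. Slc6a15, a transporter of neutral amino acids, had 54.9, 62.3 and 66.2 CPM in Q92 mice, against 48.3, 55.4 and 60.3 CPM in wild types (0.16 ± 0.0328, adjusted p = 0.00658), and 6 of 8 Q92 libraries lay above every wild type. Its value was 0.21 against the wild types of the Q20 cohort alone (adjusted p = 0.00159). Against those of the Q50 cohort alone it was 0.11 and did not pass (adjusted p = 0.297). Trib2, a pseudokinase, had 40.8, 50.9 and 55.7 CPM in Q92 mice, against 33.8, 40.0 and 49.4 CPM in wild types (0.28 ± 0.0563, adjusted p = 0.00563). Its Q140 value was 0.002, and the Q92 minus Q140 difference of 0.28 ± 0.0656 passed the threshold (adjusted p = 0.00834).

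Clustered protocadherins, adhesion proteins that give neurons combinatorial surface identities, had mostly positive values in Q92 mice. Of 22 tested genes on a list of 43, 19 had a value above 0 and Pcdhb9 passed; the median was 0.13 in Q92 mice, against 0.45 in Q140 mice, where 17 rose. Without the 3 libraries that stood apart Pcdhb13 and Pcdhb20 rose as well, and without libraries high in other tissue 0 of the 22 passed. Pcdhb9 had 15.7, 16.5 and 17.7 CPM in Q92 mice, against 12.6, 13.9 and 17.1 CPM in wild types (0.22 ± 0.0454, adjusted p = 0.00727). Between the genotypes 13 of the 22 were lower in Q92 than in Q140 mice. The genes are close relatives, so reads may be shared among them. The non-clustered protocadherin Pcdh10 rose as well (0.19 ± 0.0456, adjusted p = 0.0436), with 7 of 8 Q92 libraries above every wild type, and its call was lost in 10 of the 24 fits that left out 1 library. Dsg1c, a desmosomal cadherin, had 2.71, 4.68 and 6.01 CPM in Q92 mice, against 1.61, 3.01 and 4.77 CPM in wild types (0.55 ± 0.126, adjusted p = 0.0257), and 4 of 8 lay above every wild type; its call was lost in 4 of those fits. Xrcc5, a subunit of the Ku DNA repair complex, rose by 0.17 on the log2 scale and lost its call in 1 of them, and Adamts6, a secreted protease, rose by 0.32 and lost its call in 3. Less steady were Nagk, an N-acetylglucosamine kinase (0.20, lost in 9), Mrpl49, a mitochondrial ribosomal protein (0.12, lost in 14), and Cited2, a transcriptional coregulator (0.28, lost in 18). Mrpl49 also lost its call without the 3 libraries that stood apart (adjusted p = 0.0551). Among 9 tested genes on a separate list of desmosome and adherens junction components 0 passed.

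Several of the largest rises came from genes of other tissues and from single libraries. Gh and Prl, the pituitary hormones growth hormone and prolactin, had log2 fold changes of 7.55 for Gh and 6.25 for Prl. Gh stood at 21.4 CPM in Q92 F4, 20.4 in M2, 4.46 in F3 and at most 1.27 in the other 5, against at most 0.206 CPM in wild types. Prl stood at 62.8 CPM in F4, 18.7 in F3, 4.61 in F1, 2.95 in M2 and at most 0.334 in the other 4, against at most 1.23 CPM in wild types. Of 4 pituitary genes 3 were tested and 2 passed, and their mean log2 CPM ran from -3.15 to 3.30 in Q92 mice, against -3.46 to -1.29 in wild types. Pomc, the other tested gene, reached 8.75 CPM in M2 and 7.19 in F4 and had a value of 2.25 ± 0.63 (adjusted p = 0.11). It passed without the 3 libraries that stood apart, in the 24-library fit and without libraries high in other tissue. Of the Q92 libraries that last setting removed F4 and M4 and kept M2 and F3. With Q92 F2, F3, F4 and M2 left out together, a setting chosen after the data were seen, 0 of the 3 tested pituitary genes passed. Their median log2 fold change was then 3.71.

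The calls of 3 cerebellar genes rested on a single library. Fat2, a cadherin of cerebellar granule cells, was at 25.7 CPM in Q92 F2 and at most 0.475 in the other 7, against at most 0.527 CPM in wild types. Cbln3, a cerebellin, was at 35.4 CPM in F2 and at most 1.06 in the others, against at most 0.868 CPM in wild types, and Cnpy1 was at 8.19 CPM in F2 and at most 0.545 in the others. Gabra6, a GABA-A receptor subunit of granule cells that did not pass the filter, had 12.6 CPM in the same library. Without F2 the calls of Fat2, Cbln3 and Cnpy1 were lost. On a list of 10 cerebellar genes, made after these values were seen, 9 were tested, 3 rose, and the mean log2 CPM ran from -0.30 to 3.74 in Q92 mice, against -0.79 to 0.80 in wild types. Frmd7, a FERM domain protein, was at 6.09 CPM in Q92 F1 and at most 0.831 in the other 7, and its call was lost without F1. The part of tissue from outside the striatum in these values was not tested.

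**Figure D5:**
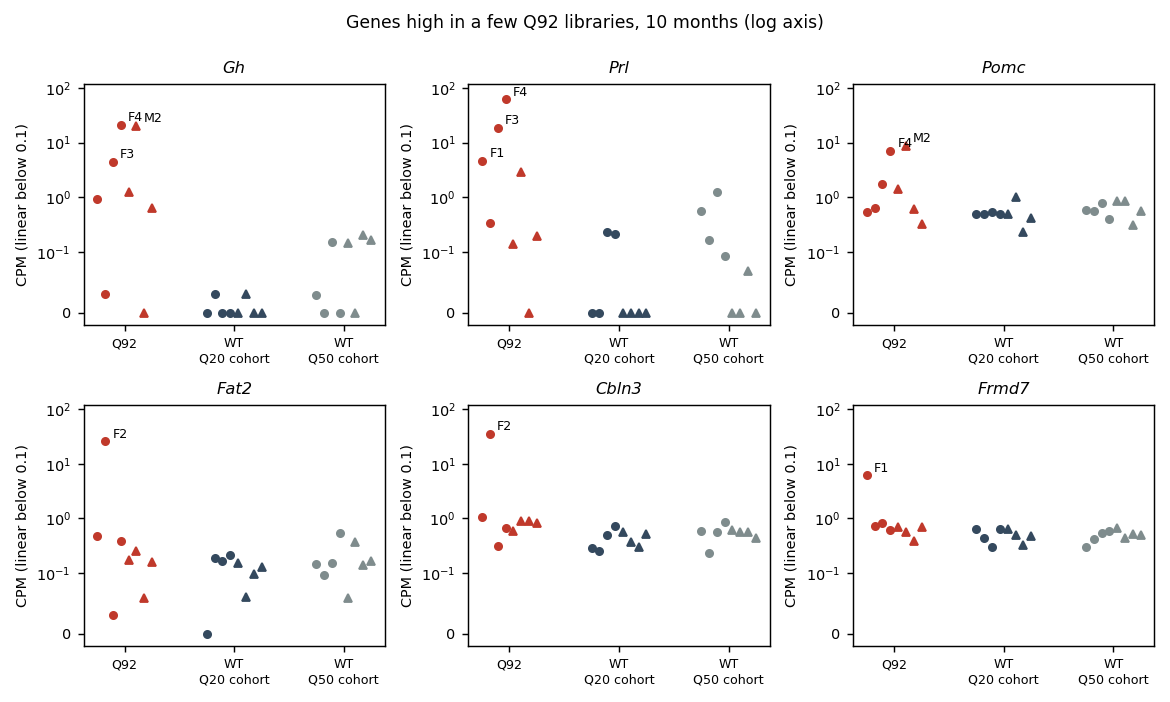
CPM per library (y axis, logarithmic above 0.1 and linear below) of Gh, Prl, Pomc, Fat2, Cbln3 and Frmd7 in Q92 mice, left of both wild-type cohorts; circles are females, triangles are males, and Q92 libraries above 3 CPM are named. Fat2 and Cbln3 are high in F2 alone, at 25.7 and 35.4 CPM, and Gh is highest in F4 and M2, at 21.4 and 20.4 CPM.

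Markers of the other cell types of the striatum showed 0 genes past the threshold. The medians were -0.045 over 13 astrocyte genes, -0.054 over 12 oligodendrocyte genes, -0.033 over 13 microglia genes, -0.0029 over 12 blood vessel genes and -0.088 over 11 interneuron genes. Thalamus genes had a median of 0.38 with all 10 above 0, and cortical projection neuron genes a median of -0.36; without the 3 libraries the thalamus median was -0.0301 and the cortical median -0.641. Without libraries high in other tissue the cortical median was 0.123. Of 23 mitochondrial respiration genes all had values above 0, between 0.008 and 0.091, and 0 passed. Lists of glutamate and GABA receptors, cAMP signalling, sodium and calcium channels, calcium stores and pumps, neuropeptides, activity-regulated genes, Polycomb proteins, cholesterol synthesis, heat shock proteins, autophagy, glucocorticoid response, the circadian clock, p53 targets, mismatch repair and interferon response had 0 genes past the threshold as well. Their medians lay between -0.16, for 23 activity-regulated genes, and 0.032, for 16 genes of the glucocorticoid response. Without the 3 libraries that stood apart some of these lists held called genes. Adcy5 and Pde10a fell among cAMP signalling genes, Scn4b among sodium and calcium channels, Ryr1 among calcium stores and pumps, Penk among neuropeptides and Npas2 among clock genes, while Pomc rose among neuropeptides and Sfmbt2 among Polycomb genes. In the 24-library fit Atp2b1 and Atp2b2, plasma membrane calcium pumps, fell too, and DESeq2 called Acat2 in cholesterol synthesis. The 6 lists of red blood cell, ependyma, choroid plexus, oligodendrocyte precursor, midbrain dopamine and liver genes also had 0. By unadjusted p under 0.05, 1 of the 13 astrocyte genes and 0 of the microglia, oligodendrocyte and interneuron genes were lower in Q92 mice.

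Of 17688 genes tested for a difference of the Q92 effect between females and males, 0 passed (0%; edgeR quasi-likelihood test, smallest adjusted p = 0.861), with 752 at an unadjusted p under 0.05, and DESeq2 and limma also gave 0. A difference between the sexes in the effect of Q92 was thus not detectable at this depth. For Rgs4 the log2 fold change was -0.45 ± 0.117 in females and -0.32 ± 0.116 in males, and for Penk it was -0.85 ± 0.261 in females and -0.43 ± 0.255 in males, with Q92 F1 among the females. Tested in each sex alone, 40 genes passed in females and 0 in males; the absence of a called difference does not show that the sexes respond alike.

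At 6 months 64 genes differed between Q92 mice and wild types (0.37% of 17303), and 14 were called at both ages with the same sign. These 14 were 19.2% of the 73 called at 10 months and 21.9% of the 64 called at 6 months, the ages sharing no library. Of the 14, 8 were on chromosome 5: Abhd1, Atraid, Dpysl5, Galnt11, Gm15721, Gm5067, Gm10471 and 5031410I06Rik. The others were Krt9, Plk5, Ddit4l, Gm6410, Gm11331 and Serpinb1b, a serine protease inhibitor. Abhd1 at 6 months ran from 4.12 to 5.52 CPM in Q92 mice, against 1.32 to 2.64 CPM in wild types, close to the ranges at 10 months. Krt9 at 6 months ran from 18.5 to 24 CPM in Q92 mice, against 26.1 to 38.3 CPM in wild types (-0.57 ± 0.0975 on the log2 scale, adjusted p = 0.0013), again with no overlap. Of the genes at 2 levels, 5031410I06Rik ran from 0.278 to 1.49 CPM in Q92 mice of 6 months, with F3 of that age at the low end.

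The Q92 effect itself differed between 10 and 6 months in 19 genes (0.11%), 12 with a higher and 7 with a lower value at 10 months. Lrrn3 had 49.0 to 62.3 CPM in Q92 mice and 38.9 to 48.5 CPM in wild types at 10 months, and 37.0 to 50.4 CPM in Q92 mice and 39.4 to 56.9 CPM in wild types at 6 months (0.39 ± 0.0752 for the effect at 10 minus 6 months, adjusted p = 0.0172). Ankrd35 had 9.48 to 13.1 CPM in Q92 mice and 11.6 to 15.5 CPM in wild types at 6 months, where the groups overlapped (-0.38 ± 0.0813, adjusted p = 0.0327). Slc6a15 (0.23 ± 0.0462), Dsg1c (0.94 ± 0.201) and Cntnap5b (-0.55 ± 0.108) were the other genes called at 10 months, along with Gh and Prl. For Gh and Prl the contrast also rests on 6 months, where 1 wild type of the Q50 cohort, F2, had 20.4 CPM of Gh and 68.1 CPM of Prl. The largest other values were those of the beta-globin gene Hbb-bs (0.62 ± 0.132), the pseudogene Ptges3-ps (-0.93 ± 0.191) and Stab2, a scavenger receptor gene (-0.85 ± 0.169). Of 37 shared projection neuron genes 0 differed between ages. This count of 19 was unsteady: it became 42 without Q92 F1, 11 without Q92 F3, 10 without F4, 8 without M2 and 12 without M4 of 10 months, 7 without Q92 F2 and 11 without M1 or M2 of 6 months, and 12 without wild type M1 or M3 of the Q50 cohort at 10 months.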

How the data were processed

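Striatal mRNA was sequenced from 96 mouse libraries in 12 groups of genotype, cohort and age. The authors deposited estimated counts and FPKM values for 39179 genes, and neither labels nor headers name an aligner, a quantifier or a genome build (not given in the sources used here). Per the submitters' processing notes, CASAVA 1.8.2 was used, and per the labels' protocols an enriched subfraction of total RNA entered standard Illumina libraries. The deposited expected counts (27.7% of non-zero values were not whole within 0.001) were rounded to whole numbers. The FPKM values deposited by the authors served as an alternative only. GENCODE M21 gave symbols for 37693 identifiers by Ensembl ID and 1486 had none.

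Genes were filtered with filterByExpr and scaled by TMM, and tested with edgeR 4.0.16's robust quasi-likelihood test in R 4.3.3 with Benjamini-Hochberg adjustment at 0.05. The fit held the 48 libraries of 10 months in 6 groups with sex as a covariate. Q92 and Q140 were set against the mean of both wild-type groups, and Q20 and Q50 against the wild types of their cohort. A second fit of 48 libraries held Q92 and wild types of both ages. CPM were taken on the TMM-scaled library size, and standard errors are the log2 fold change over the root of F. Genes were named if called, if on the lists of striatal projection neuron genes or of large Q140 changes, or among the largest values of each comparison. The members and lists were chosen with earlier results of these data known. Alternatives included DESeq2 1.42.0 and limma 3.58.1. The scripts were tested on simulated data. No 2 libraries were identical. Results for 2 genes are not reported here.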

Additional observations from a re-analysis of the deposited data

Results flagged for a closer look

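Among 147 groups of 8 libraries (49 genes in Q92 mice and both wild-type cohorts), 26 held 1 library far from the other 7 by Dixon's criterion. Chance gives about 1 in 20 for unselected groups. Some of these genes were named because 1 library was extreme, and many are related projection neuron genes. The 26 thus cannot be read as an excess over chance. Of the 26, 11 were in Q92 F1, 4 in Q92 F2 and 2 in Q92 F4.

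Q92 F1 was far below the other Q92 libraries in Rgs4 at 418 CPM, Penk at 313 CPM, Scn4b at 559 CPM, Pde10a at 529 CPM, Cnr1 at 113 CPM, Drd1 at 84.2 CPM, Drd2 at 45.2 CPM, Ppp1r1b at 407 CPM, Adcy5 at 485 CPM and Gm15721 at 0.922 CPM. It was far above them in Frmd7, at 6.09 CPM. Q92 F2 was far above the other 7 in the cerebellar genes Fat2 at 25.7 CPM, Cbln3 at 35.4 CPM, Cnpy1 at 8.19 CPM and Gabra6 at 12.6 CPM. Q92 F4 was far above in Prl, at 62.8 CPM, and below in Abhd1, at 3.40 CPM.

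In wild types of the Q20 cohort M4 was low in Drd1 at 192 CPM and in Ddit4l at 19 CPM. Also in that cohort F1 stood apart in Wt1 at 0.157 CPM, M3 in Dsg1c at 4.55 CPM and M2 in Pomc at 0.999 CPM. In the Q50 cohort F2 stood apart in Ankrd35 at 15.2 CPM, F3 in Prl at 1.23 CPM, and M2 in Gm6410 at 1.69 CPM and in Cnpy1 at 0.463 CPM.

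The effect of Q92 differed between 10 and 6 months in 19 genes by edgeR's test of the difference, of which 18 are given. The log2 effect at 10 months minus that at 6 months was positive in Gh at 11.82, Prl at 10.50, Dsg1c at 0.94, Hbb-bs at 0.62, Lrrn3 at 0.39, E2f5 at 0.36, Mterf4 at 0.28, Slc6a15 at 0.23, Tmem183a at 0.21, Arpc5 at 0.20 and Eif2b5 at 0.16. It was negative in Ptges3-ps at -0.93, Stab2 at -0.85, Cntnap5b at -0.55, Hmcn1 at -0.54, Ppargc1b at -0.54, Pcdh7 at -0.46 and Ankrd35 at -0.38.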

How the results depend on the processing

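The 73 genes called against wild types became 140 with DESeq2, 147 when the 24 libraries were fitted alone, 28 against the wild types of the Q50 cohort, 40 in females alone, 0 in males alone, and 41 with the L number of the library name as a covariate. They became 132 with a thalamus covariate, 133 with a cortex covariate, 205 with both, and 34 without libraries high in other tissues. Of alternatives chosen after the data were seen, 24 libraries without Q92 F1 gave 138, leaving out Q92 F1, Q20 F4 and Q20 M4 gave 177, and leaving out Q92 F2, F3, F4 and M2 gave 15. The count for the ages, 19, became 47 with DESeq2, 11 and 6 with limma on log2(FPKM + 1) and log2(FPKM + 0.1), and 42 without Q92 F1. The count against Q140, 571, became 1067 without those 3 libraries. Leaving out 1 library at a time gave 41 to 90 calls against wild types and 7 to 42 between the ages. Other scalings and filters gave 63 to 88. None of the 73 changed direction under any alternative run, but the alternatives reuse the libraries from which the 73 were picked. In all 24 fits without 1 library 32 kept their call, and 26 lost it in 4 or more of these fits. With the other alternatives counted too, 0 kept their call throughout, as males alone gave 0. With the fits of a single sex set aside, 9 kept it in every alternative that tested them. The cause of these changes was not tested.

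Same-numbered Q92 and wild-type libraries had correlated deviations in 6 of 16 pairs (r over 0.1, range -0.298 to 0.412). Differently numbered Q92 and wild-type libraries were not compared, so whether the numbers pair them was not tested. With the replicate block the counts were 68, 15 between the ages and 497 against Q140. It was 0 for the sex difference.

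Group sizes of 8 and 16 limit what small differences can be called, and the lowest genes here had under 1 CPM.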
